A study of Mus musculus with 14 samples.

Results

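The 10 genes described here are the cytosolic heat shock proteins Hspa1a, Hspa1b, Hspa8, Hsp90aa1, Hsp90ab1, Hsph1, Dnajb1, Hspb1 and Bag3, and the transcription factor gene Hsf1. They were taken by name from the 24411 genes of the count files, and 9 of the 10 had enough reads to be tested among 9644 genes. RNA was measured by sequencing in livers of male mice 5 to 7 months old. WT mice carried Rbbp5 (flox/flox) without the Alb-CRE transgene, and the littermates called RBBP5 LKO (RRBP5 LKO in the sample titles; LKO below) carried the same floxed allele with 1 copy of Alb-CRE, which is driven by the albumin promoter and so acts in hepatocytes. Both genotypes received an injection into the abdomen in the morning of 0.05 mg/kg tunicamycin in 3% DMSO in PBS, or of 3% DMSO in PBS alone (vehicle), and livers were taken 8 hours later. WT livers gave 3 samples per treatment, and LKO livers gave 3 after vehicle and 4 after tunicamycin. LKO vehicle libraries 3 and 4 differed by no more than sampling noise (chi-square per degree of freedom 1.12, against 3.38 to 25.9 in the 17 other pairs of a group) and were summed and counted as 1 sample, LKO vehicle 3+4.

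Cytosolic heat shock proteins are chaperones that hold, fold or release other proteins. HSP70 proteins bind short unfolded stretches with help from J-domain partners such as Dnajb1 and exchange factors such as Hsph1 and Bag3, while HSP90 proteins act later on kinases, receptors and other partly folded clients. Hsf1 is the transcription factor that binds heat shock elements in their promoters when unfolded protein builds up in the cytosol, and part of its control lies in the protein and not in its mRNA. Tunicamycin blocks N-glycosylation and so stresses folding in the endoplasmic reticulum (ER), where other chaperones of the same families work. RBBP5, the deleted gene's product, is a core subunit of complexes that methylate histone H3 at lysine 4.

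Promoter sequences are shown because Hspa1a and Hspa1b, which lie next to each other on chromosome 17, carry almost the same promoter and share most of their transcript, and because heat shock elements are the sites that Hsf1 reads. RefSeq's promoter table (GRCm38.p6) held 6 of the 10 genes. The Hspa1a stretch is chr17:34972157-34972406 and the Hspa1b stretch chr17:34959239-34959488, both on the minus strand, the 250 bases before the start of transcription, 5′ to 3′; capitals mark a pair of facing heat shock units, GAANNTTC or TTCNNGAA.
Hspa1a promoter: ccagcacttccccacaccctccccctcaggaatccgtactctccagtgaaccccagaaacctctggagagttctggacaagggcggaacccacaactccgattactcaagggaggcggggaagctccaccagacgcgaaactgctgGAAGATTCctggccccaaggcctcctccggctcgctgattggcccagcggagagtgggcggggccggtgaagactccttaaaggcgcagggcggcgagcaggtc
Hspa1b promoter: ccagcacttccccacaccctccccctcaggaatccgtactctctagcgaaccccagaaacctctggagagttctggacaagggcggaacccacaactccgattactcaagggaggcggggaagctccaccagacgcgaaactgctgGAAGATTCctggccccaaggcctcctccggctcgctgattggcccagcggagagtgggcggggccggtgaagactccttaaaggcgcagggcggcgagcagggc
The stretches were identical at 247 of 250 bases (98.8%), with C44T, T47C and T249G as the differences, written as the Hspa1a base, the position counted from the 5′ end of the stretch, and the Hspa1b base. The single match, GAAGATTC, lay 104 to 97 bases before the start in both. Hsph1 and Hspb1 also held matches, shown here as 30 bases around them, on chr5:149636351-149636380 (minus strand) and chr5:135887801-135887830 (plus strand).
Hsph1 site: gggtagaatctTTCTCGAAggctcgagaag
Hspb1 site: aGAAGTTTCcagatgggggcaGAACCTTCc
The Hsph1 match lay 33 to 26 bases before the start, inside an exon of a longer annotated Hsph1 transcript. The Hspb1 matches lay 117 to 110 and 97 to 90 bases before the start. Dnajb1 and Bag3 had no match in this window. A pair of facing units occurred in 4 of the 6 stretches and, on both strands, in 3509 of 27025 promoters of the same length (12.98%); a stretch of 3 alternating units occurred in 0 of the 6 and in 0.403% of all. These matches describe letters only and were not tied to binding.

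Depth was modest for genes of low level. The libraries held 6507018 to 13519421 reads on genes, of which 72.5 to 75.5% lay on the ribosomal RNA gene Rn45s, which left 1704479 to 3551398 reads for all other genes. Levels are given as CPM, read counts scaled to a common library size with TMM factors, with Rn45s included. The hepatocyte genes Alb, Apoa1 and Ttr were abundant in these livers (1638956, 152080 and 63691 reads in all). The listed globin genes had 0 reads in every sample, although Alas2, another red blood cell gene, had 1896 reads in all. Why the globin counts were 0 was not tested, so they do not measure the blood in these livers. The targeted gene Rbbp5 had 4.07, 6.41 and 5.10 CPM in WT vehicle, 5.37, 5.03 and 5.71 in WT tunicamycin, 4.15, 1.90 and 2.79 in LKO vehicle, and 2.80, 3.12, 3.46 and 2.06 in LKO tunicamycin. LKO vehicle 1 thus lay within the range of WT vehicle, and the other 6 LKO samples lay below every WT sample. Averaged over treatments, Rbbp5 was lower in LKO by a log2 fold change of -0.89 ± 0.18 (SE, adjusted p = 0.0181, edgeR quasi-likelihood test).

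Per length of transcript, Hspa8 and both HSP90 genes led. The authors' FPKM, a count scaled to transcript length and library size, averaged 47.3 for Hspa8 (chr9, rank 157 of 16398 genes above 0), 31.3 for Hsp90ab1 (chr17) and 8.54 for Hsp90aa1 (chr12). The exchange factors and small proteins were lower, with 2.08 for Bag3 (chr7), 1.95 for Hspb1 (chr5), 1.37 for Hsph1 (chr5) and 0.919 for Dnajb1 (chr8). The stress-inducible HSP70 genes came last among the chaperones, at 0.621 FPKM for Hspa1b and 0.188 for Hspa1a. Hsf1 (chr15) stood at 0.307 FPKM, with 11 to 19 reads per sample, so its changes carried wide intervals.

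Hspa1b, the main heat-inducible HSP70 counted here, fell after tunicamycin. It had 3.83, 4.23 and 4.08 CPM in WT vehicle against 1.10, 1.13 and 2.16 in WT tunicamycin. In LKO it had 1.78, 1.31 and 3.86 CPM with vehicle against 0.666, 0.781, 1.22 and 0.760 with tunicamycin. The tunicamycin samples lay below the vehicle samples without overlap in both genotypes, although LKO vehicle 1 and 2 already lay below every WT vehicle sample. Averaged over the genotypes, the tunicamycin effect was a log2 fold change of -1.46 ± 0.29 (SE), a 2.75-fold fall, with an adjusted p of 0.0155 by edgeR's quasi-likelihood test. The effect was -1.46 in WT and -1.45 in LKO, and the difference between them was 0.0093 with a 95% interval from -1.21 to 1.23, so a sizeable difference in either direction was not detectable. Neither genotype alone passed the threshold (adjusted p = 0.109 in WT and 0.215 in LKO). The call was lost without WT tunicamycin 1 (-1.37, adjusted p = 0.0508) and on log2(FPKM + 1) without a filter (adjusted p = 0.0574), and DESeq2 returned no adjusted p for this gene. Without LKO vehicle 3+4 the averaged value was -1.12 (adjusted p = 0.0356), and the value in LKO was -0.78.

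Hspa1a, the near-identical copy, was too thinly covered to test. It had 3, 3 and 4 reads in WT vehicle, 0 in each WT tunicamycin sample (a count of 0 allows up to 3 reads), 0, 0 and 4 in LKO vehicle, and 1, 1, 0 and 1 in LKO tunicamycin. Of the 50-base windows of its transcript, 60.3% also occurred in another gene's transcript, Hspa1b first among them, and 62.3% of Hspa1b's did, and reads from such windows cannot be assigned to 1 copy. The levels of each copy are therefore uncertain, whereas their sum is less so: with both copies added into 1 gene, the averaged tunicamycin effect was -1.49 (adjusted p = 0.0138). The deposited FPKM gave Hspa1a 0.396 ± 0.051 (SD, n = 3) in WT vehicle and 0.130 ± 0.070 (n = 3) in WT tunicamycin.

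**Figure D1:**
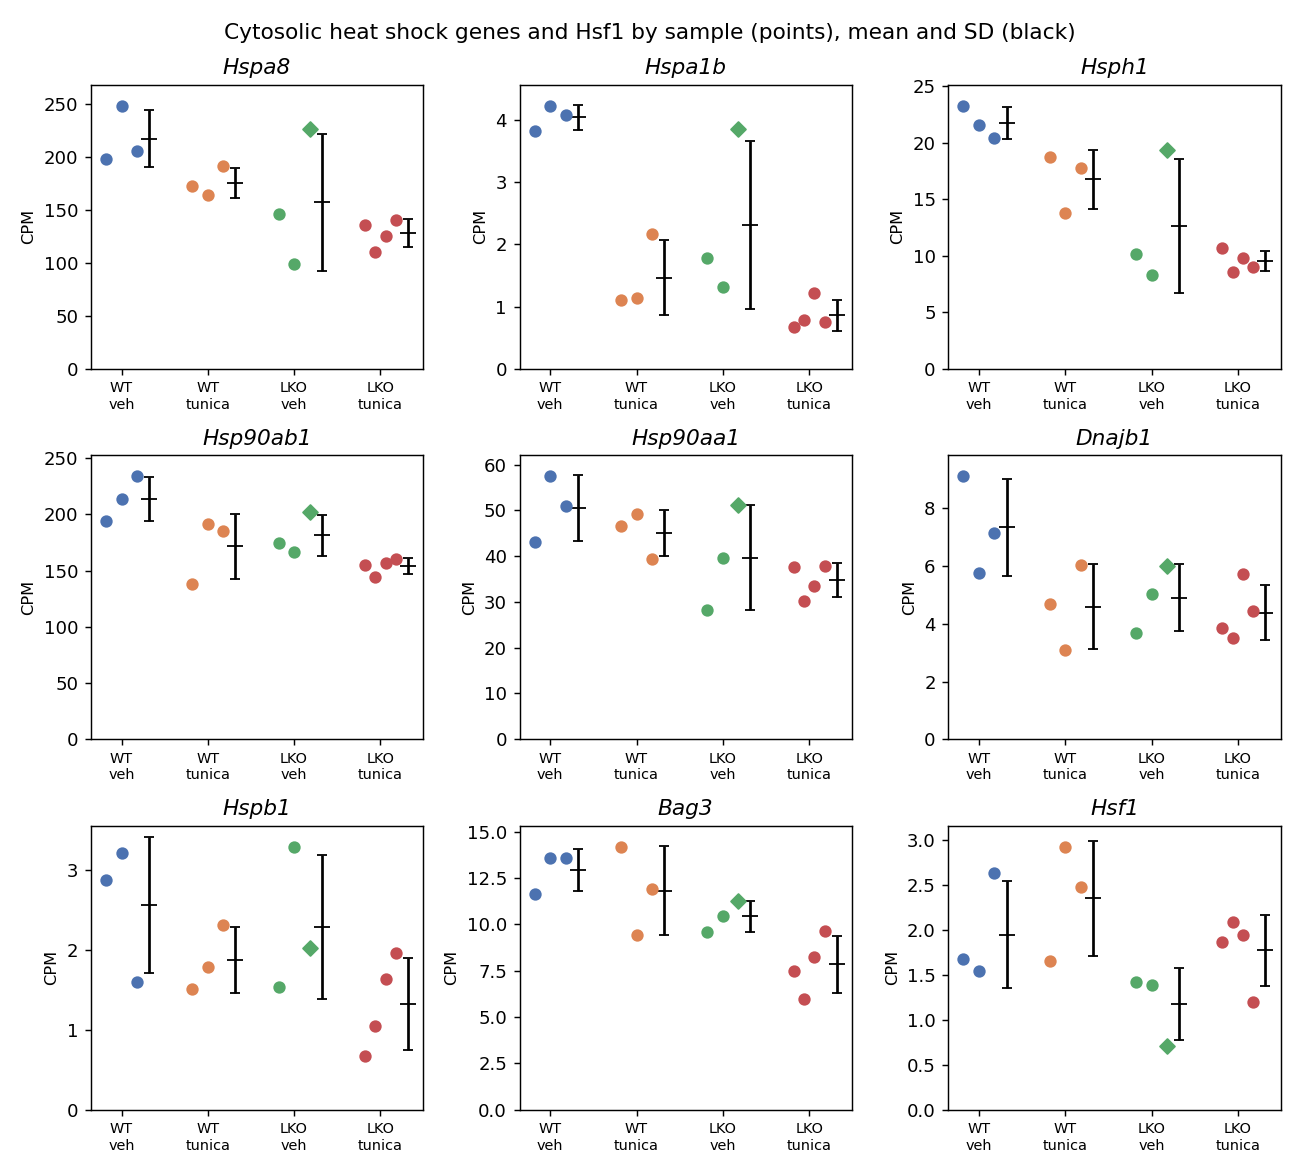
CPM (vertical axis, from 0) of the 9 tested genes in each sample (points) by group, with the group mean and SD in black; the diamond is LKO vehicle 3+4. Hspa1b tunicamycin samples lie below the vehicle samples of their genotype, and for Hsph1 6 of 7 LKO samples lie below every WT sample, the exception being the diamond at 19.3 CPM.

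Hsph1, the HSP110 exchange factor that releases nucleotide from HSP70, was lower in LKO. It had 23.2, 21.5 and 20.4 CPM in WT vehicle and 18.7, 13.8 and 17.8 in WT tunicamycin. LKO livers had 10.2, 8.25 and 19.3 CPM with vehicle and 10.7, 8.59, 9.78 and 9.01 with tunicamycin. All LKO samples but LKO vehicle 3+4 lay below every WT sample. Averaged over treatments, the log2 fold change was -0.79 ± 0.16 (SE), or 1.73-fold lower, with an adjusted p of 0.0181 (edgeR quasi-likelihood test). The effect of LKO was -0.76 with vehicle and -0.82 after tunicamycin, and neither alone passed (adjusted p = 0.330 and 0.103). The call was lost without WT vehicle 1 (adjusted p = 0.0607), WT vehicle 2 (0.0501) or WT tunicamycin 1 (0.0521), and on the authors' FPKM (adjusted p from 0.0798 to 0.152). Without LKO vehicle 3+4 the averaged value was -1.04 (adjusted p = 0.000167), and without LKO vehicle 1, the sample with Rbbp5 in the WT range, it was -0.73 (adjusted p = 0.0443). No 50-base window of the Hsph1 transcript occurred in another gene.

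Hspa8, the constitutive HSP70, varied with Hsph1 over the 13 samples (r = 0.93). Both genes had their widest spread in LKO vehicle, the only group where the samples took the same order for both. In WT vehicle, the sample with the highest Hsph1 (23.2 CPM) had the lowest Hspa8 (198 CPM). Hspa8 levels were 198, 248 and 206 CPM in WT vehicle and 172, 164 and 191 in WT tunicamycin. In LKO they were 147, 98.7 and 227 CPM with vehicle and 136, 110, 126 and 141 with tunicamycin. The LKO tunicamycin samples lay below every WT sample, while LKO vehicle 3+4 lay inside the WT vehicle range. The averaged LKO difference of -0.46 ± 0.15 (SE) did not pass (adjusted p = 0.111, edgeR), nor did the averaged tunicamycin difference of -0.30 ± 0.15 (0.269). Without LKO vehicle 3+4, the LKO difference was -0.64 and passed (adjusted p = 0.00781). Hspa8 has many processed copies, and 73.2% of its windows occurred in other transcripts, so its level is uncertain by this counting. It also holds the snoRNA genes Snord14c, Snord14d and Snord14e on the same strand.

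Neither cytosolic HSP90 gene was called. Hsp90ab1, the constitutive form, had 194, 213 and 234 CPM in WT vehicle, 139, 192 and 185 in WT tunicamycin, 175, 167 and 202 in LKO vehicle, and 155, 144, 157 and 160 in LKO tunicamycin. Every tunicamycin sample lay below every vehicle sample of its own genotype. The averaged tunicamycin difference was -0.28 ± 0.10 (SE) and did not pass (adjusted p = 0.119, edgeR), whereas DESeq2, total count scaling and the FPKM fits over the same genes called it. Hsp90aa1, the inducible form, had 43.0, 57.4 and 51.0 CPM in WT vehicle, 46.5, 49.3 and 39.4 in WT tunicamycin, 28.2, 39.5 and 51.2 in LKO vehicle, and 37.7, 30.2, 33.5 and 37.8 in LKO tunicamycin. Its groups overlapped except that LKO lay below WT after tunicamycin, and the averaged LKO difference of -0.36 ± 0.12 (SE) did not pass (adjusted p = 0.133). Windows shared with other transcripts made up 58.5% of Hsp90aa1 and 4.49% of Hsp90ab1.

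Among the partners, Bag3, the exchange factor that leads HSP70 clients to autophagy, was lowest in LKO livers given tunicamycin. It had 11.6, 13.6 and 13.6 CPM in WT vehicle, 14.2, 9.40 and 11.9 in WT tunicamycin, 9.60, 10.4 and 11.3 in LKO vehicle, and 7.46, 5.99, 8.25 and 9.66 in LKO tunicamycin. LKO vehicle lay below WT vehicle without overlap. The averaged LKO difference was -0.44 ± 0.12 (SE) and just missed the threshold (adjusted p = 0.0616, edgeR), and it passed in 3 of the other settings tried, among them the one without WT tunicamycin 2. Dnajb1, the J-domain protein that feeds clients to HSP70, had 9.10, 5.77 and 7.14 CPM in WT vehicle, 4.68, 3.08 and 6.02 in WT tunicamycin, 3.67, 5.04 and 5.99 in LKO vehicle, and 3.86, 3.51, 5.71 and 4.45 in LKO tunicamycin. Its groups overlapped in all comparisons, and the averaged tunicamycin difference was -0.43 ± 0.18 (SE, adjusted p = 0.173). Hspb1, a small heat shock protein that holds unfolded clients without ATP, had 2.87, 3.20 and 1.60 CPM in WT vehicle, 1.51, 1.78 and 2.32 in WT tunicamycin, 1.54, 3.29 and 2.02 in LKO vehicle, and 0.666, 1.04, 1.63 and 1.95 in LKO tunicamycin. With 5 to 45 reads per sample its groups overlapped throughout, and the averaged tunicamycin difference was -0.62 ± 0.26 (SE, adjusted p = 0.185).

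Hsf1 itself did not pass in any comparison. It had 1.68, 1.54 and 2.62 CPM in WT vehicle, 1.65, 2.92 and 2.47 in WT tunicamycin, 1.42, 1.39 and 0.712 in LKO vehicle, and 1.87, 2.08, 1.94 and 1.19 in LKO tunicamycin. LKO vehicle lay below WT vehicle without overlap, and the other groups overlapped. The averaged differences were 0.45 ± 0.24 (SE) for tunicamycin (adjusted p = 0.303) and -0.58 ± 0.24 for LKO (adjusted p = 0.200, edgeR). With tunicamycin its sign was opposite to that of the 8 chaperones, and its interval of -0.05 to 0.96 included 0.

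Across the 9 tested genes, calls were few, and the chaperones shared their sign. With tunicamycin averaged over genotypes, 1 of 9 was called, Hspa1b, where 4.32% of all genes were called and 2.15% were called lower. With LKO averaged over treatments 1 of 9 was called, Hsph1, where 2.21% of all genes were called and 0.861% were called lower. The simple comparisons called 0 of 9 by edgeR: tunicamycin in WT (0.363% of all genes called), tunicamycin in LKO (0.0311%), LKO with vehicle (0.0415%) and LKO after tunicamycin (0.861%). The DESeq2 count in these was also 0. Genes without a DESeq2 adjusted p, such as Hspa1b in the averaged tunicamycin comparison, could not be called by it. By the interaction, 0 of 9 were called (0% of all genes, by DESeq2 also 0), and 0 of the 9 had an unadjusted p under 0.05.

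At an unadjusted p under 0.05, more of the genes were lower than the background share. In the averaged comparisons 6 of 9 were lower with tunicamycin (9.91% of all genes) and 6 of 9 in LKO (8.99%). In the simple comparisons the counts were 3 of 9 for tunicamycin in WT (6.85%), 3 of 9 in LKO (6.33%), 5 of 9 for LKO with vehicle (3.44%) and 4 of 9 for LKO after tunicamycin (8.24%). None of the 9 was higher at that level in any of them. Samples did not overlap, with the first-named group lower, in 4 of 9 for tunicamycin in WT (8.65% of all genes), 2 of 9 in LKO (6.55%), 3 of 9 for LKO with vehicle (7.58%) and 3 of 9 for LKO after tunicamycin (6.58%). The genes vary together and these comparisons share groups, so the counts are not independent of each other.

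All 8 tested chaperones had a log2 fold change below 0 in each of these 6 comparisons. Their median was -0.35 with tunicamycin and -0.40 in LKO, averaged, while the median of all 9644 genes was 0.0092 and -0.0039. Total count scaling moved the median of all genes by more than 0.1, to -0.18 for tunicamycin in WT, -0.11 for tunicamycin averaged and 0.14 for LKO after tunicamycin, and under it Hsp90ab1 (0.0047) and Dnajb1 (0.092) turned positive in the last. The share of lower genes among all called ones moved too, from 49.6% to 81.1% for tunicamycin averaged and from 39.0% to 13.03% for LKO averaged. It went from 63.9% to 13.4% for LKO after tunicamycin and from 20% to 77.7% for tunicamycin in WT. For LKO with vehicle the shares, 25% and 12.5%, were 1 of 4 and 1 of 8 called genes. There the median of all genes was 0.0048 and 0.0061.

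**Figure D2:**
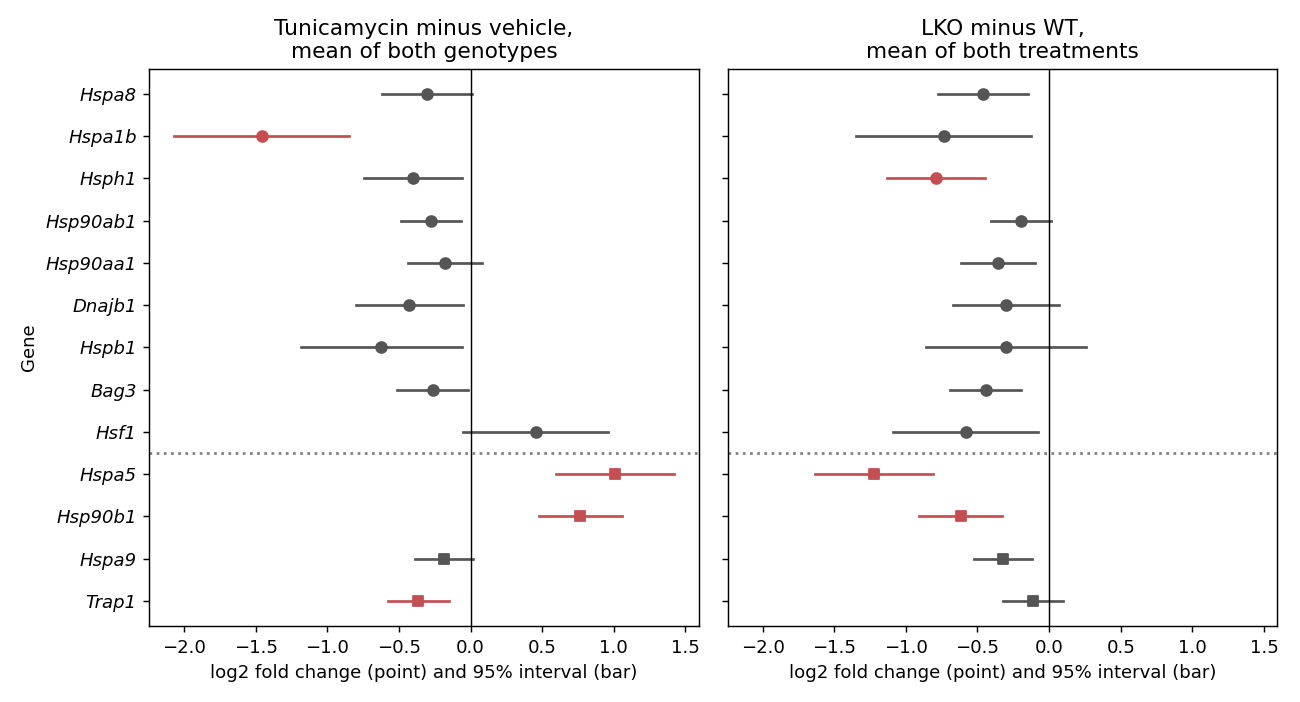
Log2 fold change (horizontal axis; points) with 95% interval (bars) for the 9 tested genes (circles) and 4 paralogues of the ER and mitochondria (squares, under the dotted line), red where the adjusted p was under 0.05. Hspa1b alone among the circles is red for tunicamycin at -1.46 and Hsph1 alone for LKO at -0.79; Hspa5 and Hsp90b1 are red on opposite sides of 0 in the panels.

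LKO vehicle samples did not form 1 level. Taking the median over the 8 chaperones of the log2 difference from the WT vehicle mean, LKO vehicle 1 and 2 stood at -0.72 and -0.43, and LKO vehicle 3+4 at -0.12. LKO vehicle 1 lay below the lowest WT vehicle sample for 8 of 8 chaperones and LKO vehicle 2 for 7 of 8, while LKO vehicle 3+4 lay inside the WT vehicle range for 6 of 8. The same median was -0.46, -0.43 and -0.23 in WT tunicamycin and -0.82, -1.04, -0.60 and -0.52 in LKO tunicamycin. Without LKO vehicle 3+4, the averaged LKO comparison called 4 of 9 genes lower (Hsp90aa1, Hspa1b, Hsph1 and Hspa8), and the tunicamycin difference in LKO turned from below to above 0 for Hspa8 (0.062), Hsp90aa1 (0.031) and Hsph1 (0.057). In LKO, then, the sign of the tunicamycin difference of those 3 genes rested on that 1 sample. Rbbp5 had 4.15, 1.90 and 2.79 CPM in LKO vehicle 1, 2 and 3+4, so the sample with the most Rbbp5 had the lowest chaperone median. How chaperone levels relate to Rbbp5 was not tested.

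**Figure D3:**
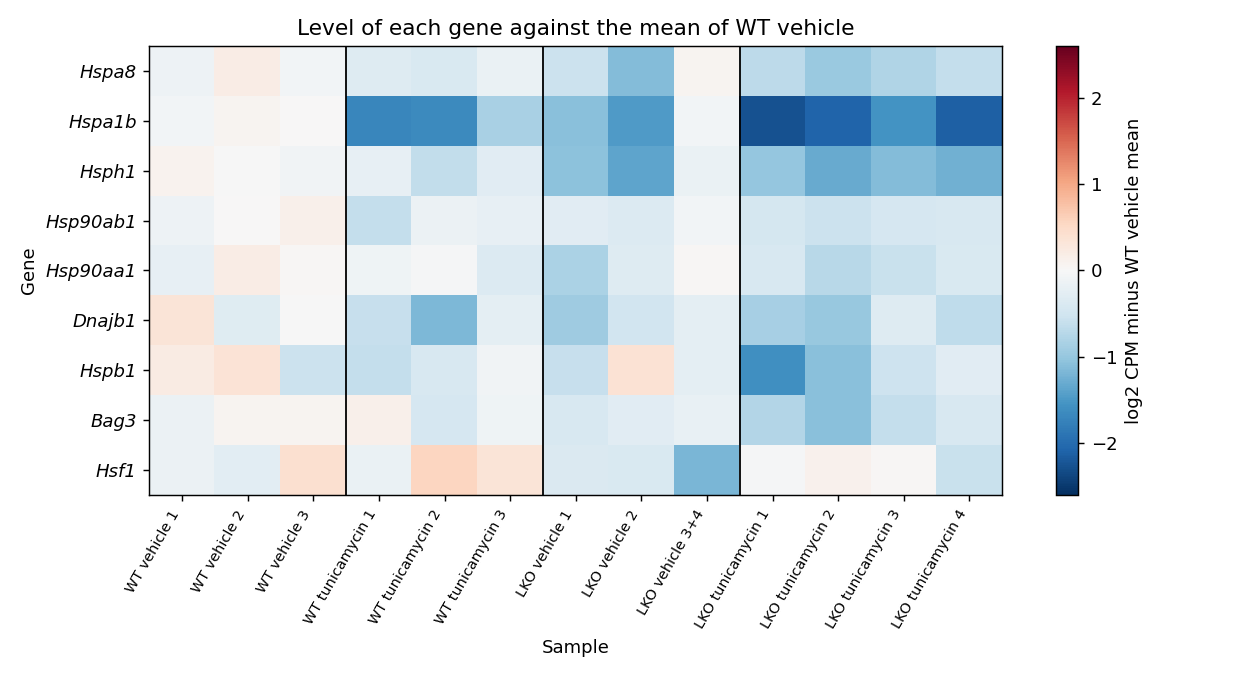
Log2 CPM of each tested gene (rows) in each sample (columns) minus the mean of WT vehicle, blue for lower and red for higher. LKO vehicle 3+4 is pale for most chaperones, with a median of -0.12, beside LKO vehicle 1 at -0.72, and LKO tunicamycin 1 and 2 have the lowest medians, -0.82 and -1.04.

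Levels of the chaperones varied together over the samples. The median Pearson correlation of log2 CPM over 13 samples was 0.63 among the 28 pairs of the 8 chaperones (Spearman 0.65), and all 28 were positive. After group means were taken off it was 0.35, with 23 of 28 positive, and without the 2 samples farthest from the median (LKO tunicamycin 2 and WT vehicle 2) it was 0.52. Hspa8 and Hsph1 were the closest pair, with r = 0.93 overall and 0.85 within groups. Hsf1 showed r between -0.24 and 0.061 with the 8 chaperones over all samples. After group means were taken off it was below 0 with 7 of 8, at -0.65 with Hsph1, -0.63 with Bag3, -0.62 with Hspa8 and -0.50 with Hsp90aa1, and 0.18 with Hsp90ab1. These values describe points that share library, depth and group. LKO vehicle 3+4 had the lowest Hsf1 of all samples (0.712 CPM) and the highest Hspa8 and Hsph1 of the LKO samples (227 and 19.3 CPM). The correlations were not recomputed without it, so how far they rest on that 1 sample was not tested.

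Other genes with the most similar profile were sought among 2208 genes of at least 4 log2 CPM over the same 13 samples. Hspa1b was most like Aadac (r = 0.96) and Aldh6a1 (0.95), Hspa8 like Ccbl2 (0.89) and Hadha (0.87), and Hsph1 like Ahctf1 (0.93) and Ccbl2 (0.92). Hsp90ab1 was most like Psmb7 (0.94) and Cat (0.91), Hsp90aa1 like Top1 (0.88) and Phf3 (0.86), and Bag3 like Etfdh (0.89) and Acadvl (0.87). For Dnajb1 these were Arih1 (0.88) and Me1 (0.88), for Hspb1 Abcd3 (0.85) and C2cd2 (0.85), and for Hsf1 Ccbl1 (0.80) and Dennd4c (0.74).

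Beside these genes, other cytosolic chaperones and their partners were counted against the same shares of all genes called, 4.32% with tunicamycin averaged and 2.21% in LKO averaged. Of 19 tested partners of HSP70 and HSP110, 1 was called lower with tunicamycin averaged, Dnaja1, a J-domain protein (-0.38 ± 0.09 SE, adjusted p = 0.0293, edgeR), and 0 in LKO averaged, where 4 were lower at an unadjusted p under 0.05; the list's medians were -0.15 and -0.12. Of 13 HSP90 co-chaperones, edgeR called 0 with tunicamycin (2 lower at an unadjusted p under 0.05) and 2 in LKO averaged, with list medians of -0.14 and -0.20. These were Stip1, which links HSP70 to HSP90 (-0.47 ± 0.10, adjusted p = 0.0190), and Chordc1 (-0.58 ± 0.14, adjusted p = 0.0451). Stip1 had 15.0 to 18.8 CPM over the WT samples and 10.4 to 12.5 in 6 of 7 LKO samples, with LKO vehicle 3+4 at 15.2. Chordc1 also had its highest LKO level there, 17.3 CPM against 8.85 to 11.2 in the other 6.

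Among 2 tested small heat shock proteins besides Hspb1, Hspb8, a partner of Bag3, was called lower in LKO averaged (-0.49 ± 0.11, adjusted p = 0.0348, edgeR) and after tunicamycin (-0.76 ± 0.16, adjusted p = 0.0339). Its mean was 34.1 ± 5.2 CPM (SD, n = 3) in WT tunicamycin and 20.1 ± 4.1 (n = 4) in LKO tunicamycin. With vehicle, mean Hspb8 was 24.1 ± 3.7 CPM in WT (n = 3) and 20.6 ± 0.87 in LKO (n = 3). In WT its tunicamycin samples (29.3 to 39.6 CPM) lay above its vehicle samples (21.7 to 28.3 CPM), a difference that was not called. None of 14 subunits of the CCT chaperonin and prefoldin was called in either averaged comparison by edgeR; 0 and 1 were lower at an unadjusted p under 0.05, and the medians were -0.06 and -0.09. Of 10 other heat shock factors and regulators 0 were called, 0 and 1 were lower at that level, and the lowest was Hsf4 in both (-0.48, adjusted p = 0.502, and -0.41, adjusted p = 0.620).

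**Figure D4:**
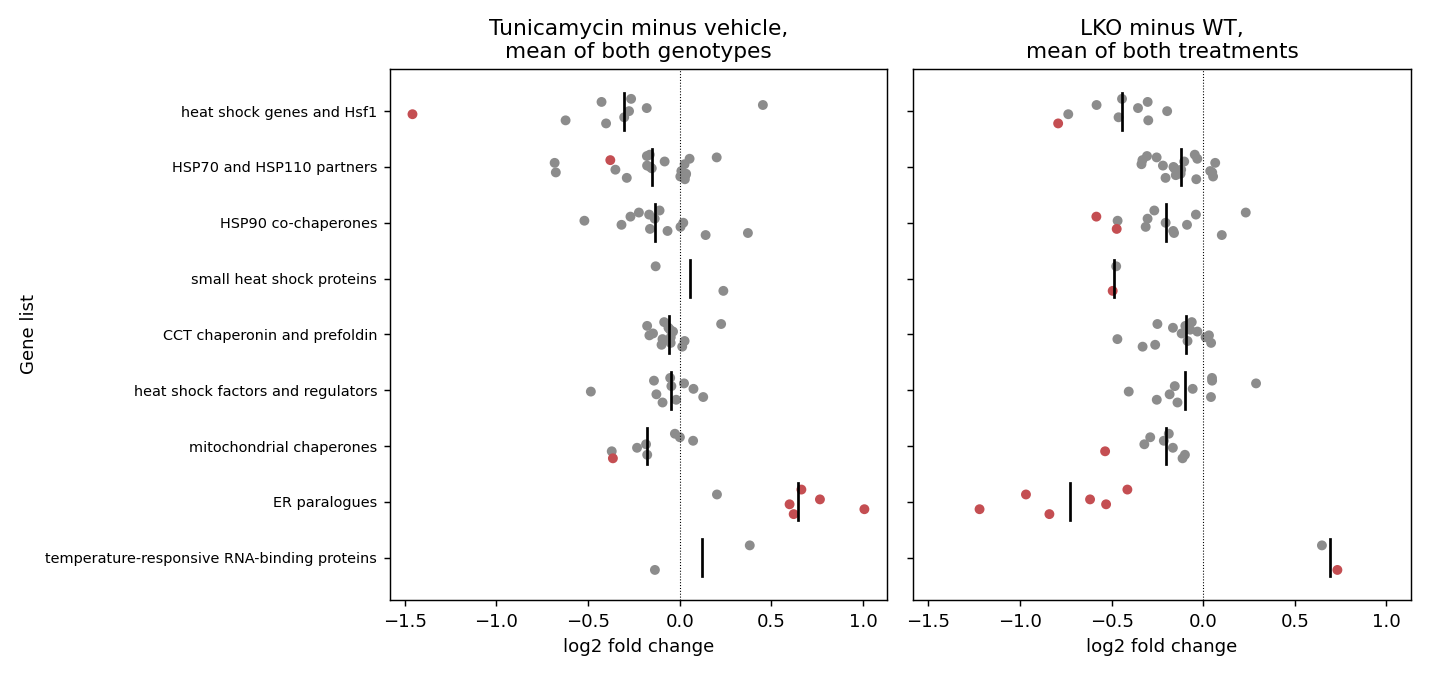
Log2 fold change (horizontal axis) of each tested gene (points) in the heat shock set and in 8 related lists (rows), red where the adjusted p was under 0.05, with the list median as a black bar. The ER paralogues have medians of 0.64 with tunicamycin and -0.73 in LKO, and the HSP70 and HSP110 partners have medians of -0.15 and -0.12.

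In the ER, the HSP70 and HSP90 paralogues were higher with tunicamycin, by more in WT than in LKO, and were lower in LKO averaged over treatments. Hspa5 (BiP), the ER HSP70, had 197, 211 and 253 CPM in WT vehicle, 854, 313 and 786 in WT tunicamycin, 127, 117 and 173 in LKO vehicle, and 229, 142, 181 and 207 in LKO tunicamycin. Its ratio to Hspa8 was higher with tunicamycin by 1.21 log2 units averaged over genotypes, by 1.75 in WT and 0.67 in LKO. An exact two-sided permutation test within genotypes gave p = 0.00143 (adjusted over 4 tests 0.00286), which is the smallest that 700 arrangements can give. Hsp90b1, the ER HSP90, had 239 to 281 CPM in WT vehicle, 411 to 751 in WT tunicamycin, 209 to 275 in LKO vehicle and 245 to 317 in LKO tunicamycin. Its ratio to Hsp90ab1 was higher with tunicamycin by 1.02 log2 units (exact permutation p = 0.00143, adjusted 0.00286), by 1.55 in WT and 0.50 in LKO. In both ratios every tunicamycin sample lay above every vehicle sample of its genotype.

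For genotype, 1 of the 2 ratios passed at an adjusted p under 0.05, and both were lower in LKO after tunicamycin. The ratio of Hspa5 to Hspa8 was lower in LKO by a log2 difference of -0.67 averaged over treatments (exact permutation p = 0.0214, adjusted 0.0286), -1.21 after tunicamycin and -0.13 with vehicle, and the p lay between 0.05 and 0.055 when any of 5 samples was left out. These were WT vehicle 3, LKO vehicle 3+4 and LKO tunicamycin 2, 3 and 4. The ratio of Hsp90b1 to Hsp90ab1 had a difference of -0.41 (exact permutation p = 0.121, adjusted 0.121), -0.93 after tunicamycin and 0.12 with vehicle. The p was 0.0367 without WT tunicamycin 2 and 0.00286 without LKO vehicle 2. Of 6 ER paralogues, 5 were called higher with tunicamycin averaged and 6 lower in LKO averaged. With tunicamycin in WT 4 were called higher (list median 1.06), and in LKO 0 were (median 0.28), against 0.363% and 0.0311% of all genes called. LKO had 5 called lower after tunicamycin (0.55% of all genes called lower) and 0 with vehicle (0.0104%). With vehicle all 6 were nonetheless below 0 in LKO, with a median of -0.37. By the interaction all 6 were below 0, 0 were called, and 4 had an unadjusted p under 0.05 (edgeR).

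In mitochondria, 1 of 8 chaperones was called with tunicamycin averaged, the HSP90 paralogue Trap1 (-0.36 ± 0.10 SE, adjusted p = 0.0475, edgeR). In LKO averaged it was Hspe1, the co-chaperonin (-0.54 ± 0.13, adjusted p = 0.0430), and after tunicamycin Dnaja3, a J-domain protein (-0.55 ± 0.12, adjusted p = 0.0405). Mean Dnaja3 was 23.4 CPM in WT vehicle and 28.1 in WT tunicamycin, against 23.1 in LKO vehicle and 19.2 in LKO tunicamycin. Hspa9, the mitochondrial HSP70, had -0.18 ± 0.10 with tunicamycin (adjusted p = 0.301) and -0.32 ± 0.10 in LKO (adjusted p = 0.0903). All 8 were below 0 in LKO averaged, with a median of -0.20.

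Cold-inducible RNA-binding proteins, whose mRNAs rise when temperature falls, were measured beside the heat shock genes. Rbm3 rose in LKO, by 0.73 ± 0.13 averaged over treatments (SE, adjusted p = 0.0101, edgeR) and 0.99 ± 0.19 after tunicamycin (adjusted p = 0.0240). It had 3.89 to 6.47 CPM over the 6 WT samples and 6.94 to 11.1 over the 7 LKO samples, without overlap, and LKO vehicle 3+4 was the lowest LKO sample. Cirbp had 1.28 to 2.48 CPM in WT and 1.36 to 3.80 in LKO, again lowest in LKO vehicle 3+4, and its averaged LKO difference of 0.65 ± 0.24 did not pass (adjusted p = 0.156). Among 7 tested immediate-early genes, which respond quickly to many stimuli, 1 was called with tunicamycin averaged, Dusp1 (-1.82 ± 0.21, adjusted p = 0.000623). Dusp1 had 7.78 to 9.91 CPM in WT vehicle and 1.65 to 3.70 in WT tunicamycin.

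Markers of some other liver cells also moved with genotype and treatment. Of 6 endothelial genes and 7 Kupffer cell and macrophage genes, 0 were called in any comparison. All 7 of the latter were above 0 with tunicamycin in both genotypes, 4 of them at an unadjusted p under 0.05 in LKO (edgeR). Their sum was 34.6 to 40.5 CPM in WT vehicle, 36.7 to 47.9 in WT tunicamycin, 26.1 to 44.7 in LKO vehicle and 39.1 to 78.2 in LKO tunicamycin. The summed level of all 7 listed stellate cell and fibroblast genes was 63.3 to 105 CPM in WT vehicle, 87.8 to 123 in WT tunicamycin, 108 to 150 in LKO vehicle and 101 to 158 in LKO tunicamycin, and 2 of the 5 tested were called in LKO averaged. For all 5 listed bile duct genes the sum was 8.6 to 11.7, 8.49 to 42.5, 17.4 to 55.2 and 35.8 to 111 CPM in the same order. This sum was mostly Spp1, with 3903 reads in all samples together, against 450 for Sox9 and 23 to 36 for Krt19, Krt7 and Epcam. Of the 2 tested, 1 was called in LKO averaged. For LKO after tunicamycin and for tunicamycin in LKO, 1 of the 2 was below 0. The 3 neutrophil genes with reads, S100a8, S100a9 and Retnlg, of which the 2 tested were both called with tunicamycin averaged, summed to 0.128 to 0.875, 0.154 to 7.84, 0.474 to 2.04 and 3.37 to 6.64 CPM. The summed level of 6 hepatocyte genes was 15907 to 18420, 13505 to 22929, 14171 to 21910 and 13333 to 18464 CPM, with 1 of 6 called in LKO averaged and 1 of 6 called, and 5 of 6 below 0, in LKO after tunicamycin. Alas2, the 1 red blood cell gene tested, was called lower with tunicamycin averaged, at 17.2 to 25.1, 10.9 to 18.8, 15.9 to 20.4 and 11.5 to 13.9 CPM. The part of these shifts in the chaperone levels was not tested, and in whole liver fewer cells of a type and less RNA per cell cannot be told apart.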

How the data were processed

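RNA was measured in 14 liver libraries, taken as 13 samples. Per the labels and the submitters' processing notes, Trimmomatic, STAR and Cufflinks were used with mm10; versions and settings are not given in the sources used here. Per the file headers and values, the deposited STAR tables hold raw read counts per gene; the third column was used, which held 99.5 to 99.6% of the reads of both strands together. The authors' deposited FPKM, counts scaled to transcript length and library size, were used to compare genes and in limma alternatives with a pseudocount of 1 or 0.1. A pair of libraries that differed by little more than sampling noise were summed.

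Counts were fitted with edgeR 4.0.16 in R 4.3.3 (TMM factors, filterByExpr, glmQLFit and glmQLFTest) with 1 mean per group over all 13 samples, 9 residual degrees of freedom, and Benjamini-Hochberg adjustment over 9644 genes. A gene was called at an adjusted p under 0.05. There were 7 comparisons: tunicamycin in each genotype, LKO with each treatment, both averaged effects and their interaction. The fit was tested on simulated data. Alternatives were limma 3.58.1, DESeq2 1.42.0, other scalings and filters, and each sample left out. Named genes were the 10 members, Rbbp5, 4 paralogues in other compartments, list genes called in any comparison or else the highest or lowest of the list, and the 2 genes most like each member. Ratios of ER to cytosolic paralogues were compared by exact permutation over samples, chosen after the data were seen. Members and lists were chosen with earlier results of these data known. Nothing in the labels ties a library to an animal or a batch, so p-values measure the spread between these samples. The replicate numbers were not used to pair the samples in the main fit. Windows of 50 bases shared between genes were counted in the annotated transcripts, 1 per member, and promoters came from RefSeq (GRCm38.p6).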

Additional observations from a re-analysis of the deposited data

How the results depend on the processing

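The 8 tested chaperones kept a negative sign for tunicamycin averaged over genotypes and for LKO averaged over treatments in every setting tried, while calls near the threshold moved. No other direction is claimed to hold, and the cause of the changes below was not tested.

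Calls among the 9 heat shock genes changed as follows. Without a filter on low counts, 1 was called for tunicamycin in WT, 1 for tunicamycin in LKO, 1 for LKO with vehicle, 1 for LKO after tunicamycin, 2 for tunicamycin averaged and 3 for LKO averaged. Total count scaling called 1 for tunicamycin in WT and 2 for tunicamycin averaged. The FPKM fits with a pseudocount of 1 or 0.1 called 2 for tunicamycin averaged and 0 for LKO averaged, and without a filter 0 and 0. With only the groups of the comparison, 1 was called for LKO after tunicamycin. Leaving out 1 sample gave 0 to 1 calls for tunicamycin in WT, 0 to 1 for LKO with vehicle, 0 to 1 for LKO after tunicamycin, 0 to 2 for tunicamycin averaged and 0 to 4 for LKO averaged.

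Calls over all genes moved more. Total count scaling gave 148 for tunicamycin in WT, 8 for LKO with vehicle, 164 for LKO after tunicamycin and 810 for tunicamycin averaged. DESeq2 gave 152 for tunicamycin in WT, 34 in LKO, 17 for LKO with vehicle and 137 for LKO after tunicamycin. No filter on low counts gave 289, 153, 84 and 261 in these, 764 for tunicamycin averaged and 514 for LKO averaged. FPKM with a pseudocount of 1 gave 3, 0 and 0 in the first 3 and 259 for tunicamycin averaged; with 0.1 it gave 1, 0, 0 and 222. Without a filter FPKM gave 0, 1, 0 and 7 in the 4 simple comparisons, 19 for tunicamycin averaged and 43 for LKO averaged. The 14 libraries taken singly gave 56, 5 and 12 in the first 3 and 668 for tunicamycin averaged. Reads of both strands gave 53 for tunicamycin in WT, and only the groups of the comparison gave 7 there, 25 for LKO with vehicle and 27 after tunicamycin. Leaving out 1 sample gave 0 to 615, 0 to 67, 0 to 17 and 0 to 183 in the simple comparisons, 0 to 2 for the interaction, 59 to 1085 for tunicamycin averaged and 62 to 413 for LKO averaged. Removing Rn45s gave 49 for tunicamycin in WT.

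Signs turned for small differences that were not called. LKO after tunicamycin turned positive for Hsp90ab1 with total counts (0.0047) and FPKM (0.030, 0.031 with 0.1). It did so for Dnajb1 with total counts (0.092), FPKM (0.036, 0.082 with 0.1), without WT tunicamycin 3 (0.17) and without LKO tunicamycin 2 (0.040), with a range of -0.26 to 0.17 over samples left out. Hsf1 turned positive with FPKM (0.015, 0.020 with 0.1). Tunicamycin in WT turned for Bag3 without WT tunicamycin 2 (0.019; range -0.28 to 0.019). Tunicamycin in LKO turned without LKO vehicle 3+4 for Hspa8 (0.062; range -0.55 to 0.062), Hsp90aa1 (0.031; -0.38 to 0.031) and Hsph1 (0.057; -0.67 to 0.057). LKO with vehicle turned for Hspb1 without WT vehicle 2 (0.024) or LKO vehicle 1 (0.0088; range -0.50 to 0.024).

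With the replicate number as a block, calls over all genes were 5 for tunicamycin in LKO, 0 for LKO with vehicle and 32 for LKO after tunicamycin, and 2 heat shock genes, Hsph1 and Bag3, were called in LKO averaged. Same-numbered samples correlated between -0.12 and 0.14 in their deviations from group means, over 0.1 in 3 of 18 pairs. Samples with different numbers were not compared in this way, so whether the numbers pair the samples was not tested. Without the 2 farthest samples the median correlation among chaperones was 0.52.

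Read depth limits Hspa1a, Hspa1b, Hspb1 and Hsf1 most, at 0 to 65 reads per sample, and shared sequence limits Hspa1a, Hspa1b, Hspa8, Hsp90aa1 and Hspb1.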
